A study of Homo sapiens with 6 samples.

Results

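Translation factors are the proteins that bring the ribosome, mRNA and tRNAs together to start, extend and end a protein chain. The set described here was chosen by name and has 45 genes, of 63086 in the table: 35 act in initiation or restrain it, 1 encodes eIF5A, 5 are forms or subunits of the elongation factor eEF1, 2 are eEF2 and its kinase, and 2 end translation. All 45 matched a single gene identifier and all passed the filter on low counts, with at least 592 counts in each library. RNA came from A375, an established human melanoma line. Wild-type cells that were never targeted (3 libraries) were compared with cells in which DUS1L had been disrupted by CRISPR/Cas9 and which had then been selected as clones (3 libraries). DUS1L is a dihydrouridine synthase, an enzyme that modifies the D loop of tRNAs. The sources used here do not give the number of clones, so a change caused by the loss of DUS1L and a difference between a clone and its parental population cannot be told apart.

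Initiation begins when eIF2 carries the initiator tRNA to the small ribosomal subunit, where eIF1, eIF1A, eIF3 and eIF5 help it find the start codon, while the eIF4 proteins bind the mRNA cap and unwind the leader. eIF2B recharges eIF2 with GTP, and phosphorylation of the alpha subunit of eIF2 under stress turns eIF2 into an inhibitor of eIF2B. During elongation eEF1A delivers aminoacylated tRNAs and eEF2 moves the ribosome along. Many of these factors, like the ribosomal proteins, are made from TOP mRNAs, which begin with a C followed by a run of pyrimidines (a terminal oligopyrimidine tract) and whose translation depends on mTORC1 and the RNA-binding protein LARP1.

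The tract can be read at the annotated transcript starts. The lines below show 30 bases around the start from the RefSeq promoter table (GRCh38.p14), 10 before the first transcribed base and 20 from it on, on the coding strand. Capitals mark a tract, defined as a C at the first base followed by at least 4 bases that are each C or T. The first 8 carry it and the remaining 6 do not. Of those with a tract, EEF1A1, EEF1B2, EIF4B, EIF4A2 and EIF3K fell and EEF2, EIF3F and EIF3D were not called. Of those without, EEF1G, EIF4A1 and EIF2B3 fell and EIF1, EIF5 and EIF3I rose.
EEF1A1 (chr6:73521013-73521042, minus strand): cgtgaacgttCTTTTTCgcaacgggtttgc
EEF1B2 (chr2:206159885-206159914, plus strand): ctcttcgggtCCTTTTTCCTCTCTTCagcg
EEF2 (chr19:3985444-3985473, minus strand): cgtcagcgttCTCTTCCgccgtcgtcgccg
EIF4B (chr12:53006446-53006475, plus strand): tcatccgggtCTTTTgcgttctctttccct
EIF4A2 (chr3:186783567-186783596, plus strand): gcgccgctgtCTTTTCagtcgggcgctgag
EIF3F (chr11:7987327-7987356, plus strand): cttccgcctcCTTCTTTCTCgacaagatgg
EIF3K (chr19:38619178-38619207, plus strand): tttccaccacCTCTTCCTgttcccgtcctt
EIF3D (chr22:36529147-36529176, minus strand): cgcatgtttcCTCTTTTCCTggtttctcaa
EEF1G (chr11:62573872-62573901, minus strand): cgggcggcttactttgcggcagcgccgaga
EIF4A1 (chr17:7572815-7572844, plus strand): ggcactccgccctagtttctaaggatcatg
EIF1 (chr17:41688875-41688904, plus strand): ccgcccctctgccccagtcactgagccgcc
EIF5 (chr14:103334227-103334256, plus strand): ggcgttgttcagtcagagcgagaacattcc
EIF3I (chr1:32222397-32222426, plus strand): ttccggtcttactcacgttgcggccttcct
EIF2B3 (chr1:44986576-44986605, minus strand): gctgtcagtcagaggcggcgtggagatcgc

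The libraries held 17121315 to 18861514 estimated counts. DUS1L itself fell to 70.2% of its wild-type level, from 77.6 ± 2.2 to 54.4 ± 1.1 CPM (CPM, counts scaled to the same effective library size; mean ± SD, n = 3 in each group, as for all means below; edgeR adjusted p = 1.70e-06). Wild-type replicate 1 stood apart from the other wild-type libraries on the second principal component (14.9% of the variance), at 38.1 against -23.6 and -14.8. Of the melanocyte markers, SOX10 was at 453.9 to 618.2 CPM, while PMEL and MLANA stayed at 0.488 CPM or less and TYR had no count in any library. The 9 melanoma markers summed to 742 to 769 CPM in wild-type and 548 to 613 CPM in knockout libraries. Of the 5 that passed the filter on low counts, 4 were called lower, as were 20.7% of all tested genes. These were SOX10, S100B, ERBB3 and EDNRB (log2 fold changes -0.33, -0.90, -0.86 and -1.11, edgeR adjusted p of 0.000325 or less). MITF was not called. The 6 keratinocyte markers summed to 50.1 to 59.3 CPM over both groups, with KRT5, KRT1 and IVL at 0. The 6 fibroblast markers summed to 33.3 to 79.2 CPM in wild-type and 57.0 to 174.2 CPM in knockout libraries, and the 4 endothelial markers to 2.02 to 3.93 CPM, with none of either list at 0. In the highest fibroblast sum, knockout replicate 2, COL1A1 and COL1A2 were at 100.8 and 57.9 CPM, and neither was called. PDGFRB fell (log2 fold change -0.89, edgeR adjusted p = 8.11e-05), and DCN and LUM were not called. Mitochondrially encoded genes took 4.77%, 4.55% and 4.41% of the counts in wild-type replicates 1 to 3 and 3.79%, 4.10% and 3.84% in knockout replicates 1 to 3, with no overlap. The part of this share and of the melanoma and fibroblast markers in the results was not tested.

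Transcripts of the translation factors changed in both directions and by small amounts. Of the 45, 8 rose in knockout cells (17.8%) and 16 fell (35.6%), and 21 were not called at an adjusted p under 0.05 (edgeR quasi-likelihood test over all 16046 tested genes). Over all tested genes 20.5% were called higher and 20.7% lower. Log2 fold changes ran from -0.34 (EEF1A1) to 0.38 (EIF5), and none of the 45 passed the test for a change of more than 1.5-fold, which 3.58% of all genes passed (2.31% higher and 1.27% lower). In 10 factors every knockout library was above every wild-type library, and in 18 every one was below, where 25.4% and 25.8% of all tested genes were so placed (51.2% in either direction). Translation factors are abundant transcripts: 38 of the 45 had a mean of 100 CPM or more, and of these 8 rose and 12 fell (21.1% and 31.6%). Among all 2232 genes at that level, a background chosen after the values were seen, 23.9% were called higher and 38.7% lower. The shares of factors called are near or below those of equally abundant genes. Scaling by library size alone gave 10 factors higher and 12 lower. Since CPM is relative and the RNA is from bulk cells, fewer cells with a transcript and less of it per cell cannot be told apart.

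**Figure D1:**
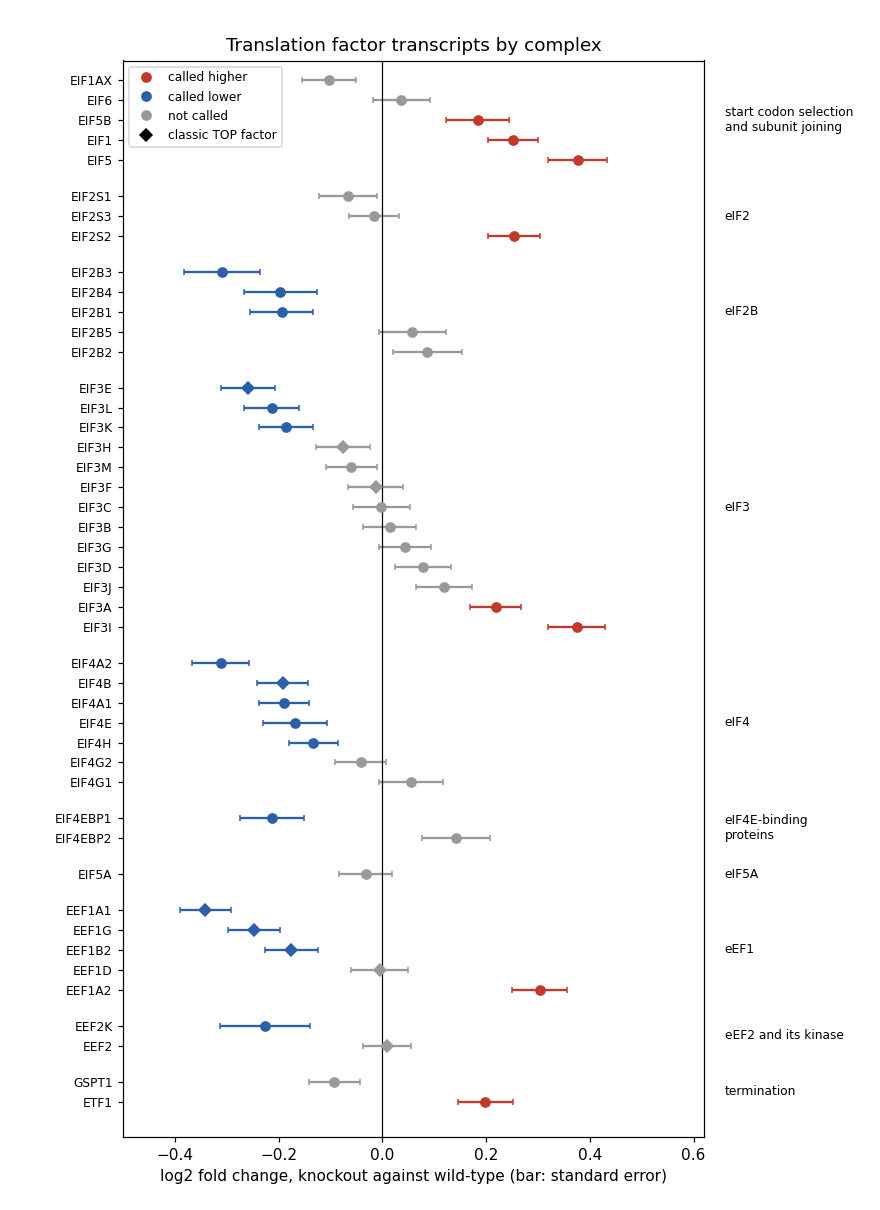
Log2 fold change of each of the 45 transcripts, knockout against wild-type (x axis), grouped by complex, with standard errors; red was called higher, blue lower and grey not called, and diamonds mark the classic TOP factors. The eIF4 and eIF2B groups hold no red point, the start codon group holds no blue point, and eIF3 holds both.

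Among factors that select the start codon and join the subunits, EIF1, EIF5 and EIF5B rose, and EIF1AX and EIF6 were not called. EIF5, which triggers GTP hydrolysis by eIF2 at the start codon, was at 343.7, 291.3 and 304.9 CPM in wild-type replicates 1 to 3 and at 410.8, 404.1 and 405.2 CPM in knockout replicates 1 to 3. Every knockout library lay above every wild-type library (log2 fold change 0.38, SE 0.06, adjusted p = 2.05e-05, edgeR). EIF1, which guards the fidelity of start codon choice, was at 775.2, 730.5 and 723.5 CPM in wild-type and at 863.3, 889.4 and 901.5 CPM in knockout libraries, again without overlap (log2 fold change 0.25, SE 0.05, adjusted p = 0.000284). EIF5B, the GTPase that joins the subunits, went from 196.6 ± 17.9 to 223.2 ± 7.4 CPM (adjusted p = 0.0205). Leaving out wild-type replicate 1 (adjusted p = 0.0792), knockout replicate 1 (0.0595) or knockout replicate 2 (0.0960) ended the call, in a range of adjusted p from 0.00563 to 0.152 over 14 alternative settings, the last with offsets for transcript length and GC content. EIF1AX, a partner of eIF1, had means of 203.5 ± 2.1 CPM (wild-type) and 189.4 ± 9.1 CPM (knockout), with an adjusted p of 0.122. EIF6, which keeps free large subunits from joining too early, was at 303.8 ± 14.9 and 311.5 ± 17.3 CPM (adjusted p = 0.63). The group summed to 1760 ± 23 CPM in wild-type and to 2016 ± 9 CPM in knockout libraries, 114.5% of the wild-type level.

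Of the 3 subunits of eIF2, the beta subunit alone was called. EIF2S2, the beta subunit, was at 422.4, 397.7 and 381.9 CPM in wild-type and at 479.5, 474.9 and 478.2 CPM in knockout libraries. The groups did not overlap, and the knockout libraries lay within 5 CPM of each other (log2 fold change 0.25, SE 0.05, adjusted p = 0.000372). EIF2S1, the alpha subunit that stress kinases phosphorylate, was at 178.7, 170.7 and 160.6 CPM in wild-type and at 162.6, 157.1 and 167.2 CPM in knockout libraries, and the groups overlapped (log2 fold change -0.07, adjusted p = 0.359). EIF2S3, the gamma subunit that binds GTP and the initiator tRNA, was at 298.1 ± 2.8 and 294.6 ± 6.5 CPM (adjusted p = 0.802). Per kilobase of transcript, EIF2S2 made up 79.3% ± 0.2 of the alpha and beta levels together in wild-type and 82.7% ± 0.4 in knockout libraries. The groups did not overlap, and p = 0.1 in an exact two-sided permutation test is the smallest that 3 against 3 libraries can give (adjusted p = 0.15 over the 3 such shares computed, which were chosen after the values were seen).

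The exchange factor eIF2B had 3 of 5 subunits called lower and none higher, beside 20.7% and 20.5% of all tested genes, and the calls of EIF2B1 and EIF2B4 were lost in several settings. EIF2B3, the gamma subunit of its catalytic part, was at 47.3, 45.9 and 44.7 CPM in wild-type and at 37.5, 35.1 and 38.6 CPM in knockout libraries. All knockout values lay below all wild-type values (log2 fold change -0.31, SE 0.07, adjusted p = 0.00192). EIF2B1 and EIF2B4, the alpha and delta subunits of the regulatory core, fell, with log2 fold changes of -0.19 and -0.20 (adjusted p = 0.0133 and 0.0301). The EIF2B1 call ended when wild-type replicate 2 (adjusted p = 0.0632), knockout replicate 1 (0.0674) or knockout replicate 3 (0.0511) was left out, in a range from 0.000739 to 0.0674 over the settings. EIF2B4 kept its call when wild-type replicate 3 was left out and lost it for each other library (adjusted p = 0.0532 and 0.118 without wild-type replicates 1 and 2, and 0.0676, 0.0605 and 0.0806 without knockout replicates 1, 2 and 3), and it was not called with DESeq2 (0.0526) or library size alone (0.0904), in a range from 0.0113 to 0.118. EIF2B2 and EIF2B5, the beta subunit and the catalytic epsilon subunit, were not called, EIF2B2 with means of 67.5 ± 5.0 and 71.6 ± 1.5 CPM (adjusted p = 0.318) and EIF2B5 with 70.7 ± 3.1 and 73.5 ± 3.4 CPM (adjusted p = 0.504). The 5 subunits summed to 365.5 ± 14.5 and 340.7 ± 2.1 CPM.

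The 13 subunits of eIF3, the scaffold that binds the small subunit, did not move together: 2 rose, 3 fell and 8 were not called. That is 15.4% higher and 23.1% lower, beside 20.5% and 20.7% of all tested genes. At 100 CPM or more, where all 13 lie, the shares were 23.9% and 38.7%. EIF3I, a WD-repeat subunit that sits with EIF3B and EIF3G, was at 245.2, 273.5 and 283.0 CPM in wild-type and at 342.3, 348.3 and 348.7 CPM in knockout libraries. It had the highest fold change of the complex, with no overlap (log2 fold change 0.37, SE 0.05, adjusted p = 1.51e-05). Its neighbours in that module were not called, EIF3B at 342.3 ± 10.0 and 345.6 ± 16.0 CPM (adjusted p = 0.854) and EIF3G at 252.9 ± 5.4 and 260.6 ± 7.9 CPM (adjusted p = 0.519). EIF3A, the largest subunit and the core of the complex, was at 417.3, 407.7 and 421.5 CPM in wild-type and at 505.3, 467.7 and 477.3 CPM in knockout libraries (log2 fold change 0.22, SE 0.05, adjusted p = 0.0012). Every knockout library was above every wild-type library for EIF3A.

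EIF3E, EIF3L and EIF3K were the eIF3 subunits that fell. EIF3E was at 440.6, 417.7 and 407.6 CPM in wild-type and at 342.3, 371.8 and 343.5 CPM in knockout libraries (log2 fold change -0.26, SE 0.05, adjusted p = 0.00042). EIF3L was at 415.0, 381.9 and 372.3 CPM in wild-type and at 324.6, 337.6 and 346.2 CPM in knockout libraries (log2 fold change -0.21, SE 0.05, adjusted p = 0.00269). Neither gene's groups overlapped. EIF3K, the small subunit that pairs with EIF3L at the edge of the complex, went from 234.6 ± 9.1 to 206.1 ± 5.8 CPM (log2 fold change -0.19, adjusted p = 0.00638). The subunits not called were EIF3B, EIF3C, EIF3D, EIF3F, EIF3G, EIF3H, EIF3J and EIF3M, with log2 fold changes from -0.08 (EIF3H) to 0.12 (EIF3J). EIF3C shares its sequence with the copy EIF3CL, which was at 2.97 ± 1.29 and 5.63 ± 3.81 CPM. How reads were divided between them was not given, and with the counts of both added the log2 fold change of EIF3C was 0.003. The complex summed to 4484 ± 11 CPM in wild-type and to 4486 ± 63 CPM in knockout libraries.

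**Figure D2:**
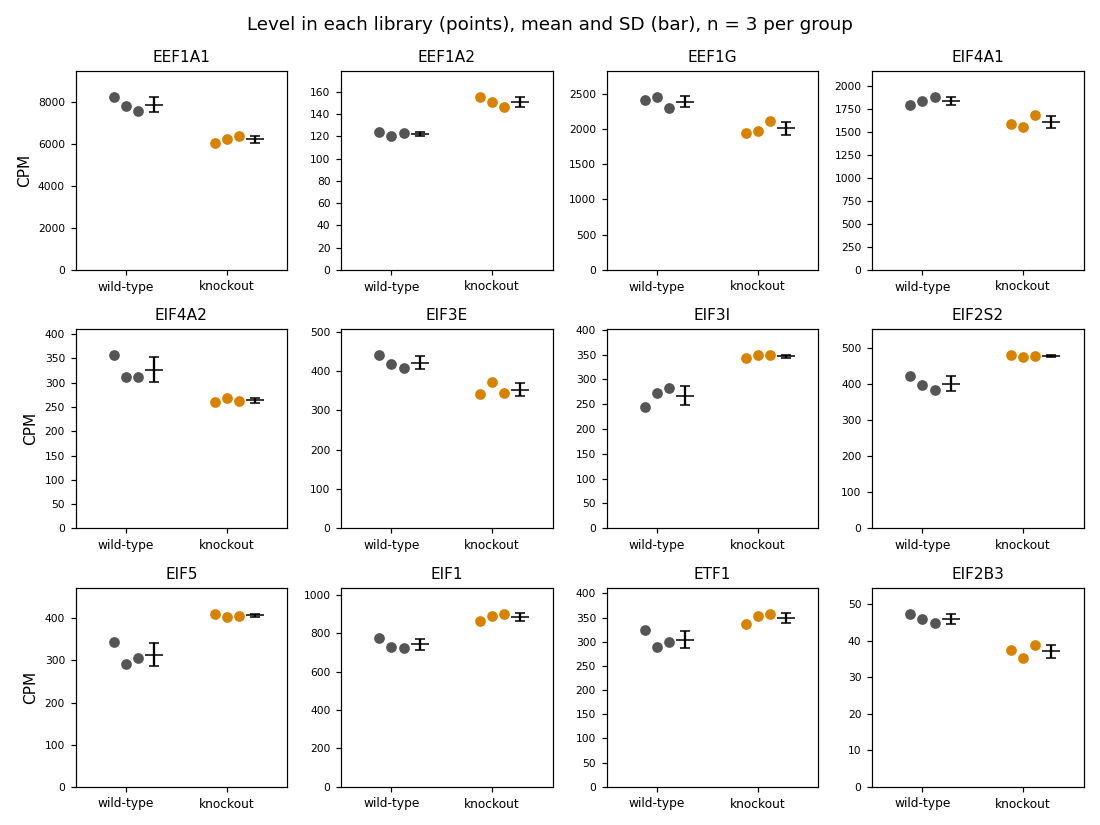
Level in each library in CPM (y axis, from 0) of 12 factors in wild-type (grey) and knockout (orange) cells, with mean and SD beside the points. EEF1A2, EIF3I, EIF2S2, EIF5, EIF1 and ETF1 were higher in all 3 knockout libraries, and EEF1A1, EEF1G, EIF4A1, EIF4A2, EIF3E and EIF2B3 lower.

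In the eIF4 group, 5 of 7 factors fell and none rose, beside 20.7% of all tested genes called lower and 38.7% of those at 100 CPM or more, the level of each but EIF4E. The calls of EIF4E and EIF4H were lost in several settings. EIF4A2, one of the paralogous helicases that unwind the leader, was at 356.7, 312.7 and 312.4 CPM in wild-type and at 259.9, 268.8 and 262.0 CPM in knockout libraries. Even the lowest wild-type library was above all knockout libraries (log2 fold change -0.31, SE 0.06, adjusted p = 0.000131). The more abundant paralog EIF4A1 went from 1833 ± 46 to 1607 ± 68 CPM (log2 fold change -0.19, adjusted p = 0.00363). The share of EIF4A2 in the helicase pair, per kilobase, was 14.3% ± 1.2 in wild-type and 13.3% ± 0.6 in knockout libraries, a difference within the spread (exact two-sided permutation p = 0.4). EIF4B, which stimulates the helicase, went from 513.2 ± 11.6 to 449.1 ± 18.1 CPM (log2 fold change -0.19, adjusted p = 0.00357).

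EIF4E, the cap-binding protein, was at 79.8, 76.5 and 74.7 CPM in wild-type and at 67.0, 71.0 and 67.5 CPM in knockout libraries. The groups did not overlap (log2 fold change -0.17, SE 0.06, adjusted p = 0.0332). The call was lost with DESeq2 (adjusted p = 0.0543), library size alone (0.115) and without wild-type replicate 1 or 2 (0.0734 and 0.0654) or knockout replicate 1 or 3 (0.111 and 0.0966), in a range from 0.00296 to 0.115. EIF4H, a smaller factor that acts like EIF4B, had a log2 fold change of -0.13 (adjusted p = 0.0283), a call lost with library size alone (0.140) and without any single library other than wild-type replicate 1 (0.0574 to 0.104), in a range from 0.000815 to 0.140. EIF4G1, the scaffold of the cap-binding complex, was at 458.8 ± 48.0 and 476.5 ± 7.7 CPM (adjusted p = 0.517). EIF4G2, a relative that does not bind eIF4E, was at 806.6 ± 36.7 and 783.5 ± 10.0 CPM (adjusted p = 0.525). The group summed to 4498 ± 57 CPM in wild-type and to 4088 ± 85 CPM in knockout libraries, 90.9% of the wild-type level.

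EIF4EBP1, which holds eIF4E away from EIF4G1 until mTORC1 phosphorylates it, was at 121.8, 121.2 and 121.8 CPM in wild-type and at 113.6, 95.6 and 105.3 CPM in knockout libraries. The wild-type values lay within 1 CPM and above all knockout values (log2 fold change -0.21, SE 0.06, adjusted p = 0.00902). Without knockout replicate 2, its lowest library, the call was lost (adjusted p = 0.0728), as it was with offsets for transcript length and GC content (0.0514), in a range from 0.00215 to 0.0728. Its paralog EIF4EBP2 was at 58.3 ± 0.7 and 64.4 ± 4.0 CPM, a difference that missed the threshold (log2 fold change 0.14, adjusted p = 0.0945). EIF5A, which helps the ribosome through proline stretches, was at 692.1, 761.6 and 745.4 CPM in wild-type and at 744.8, 694.2 and 710.9 CPM in knockout libraries, and the groups overlapped (log2 fold change -0.03, adjusted p = 0.644).

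Among the elongation factors, the paralogs of eEF1A moved in opposite directions. EEF1A1 (ENSG00000156508.19, chr6:73489308-73525587 on the minus strand, GRCh38), the general form and the most abundant transcript of the set, was at 8243, 7814 and 7560 CPM in wild-type and at 6058, 6210 and 6369 CPM in knockout libraries. All knockout values were lower, and 78.9% of the wild-type level was left (log2 fold change -0.34, SE 0.05, adjusted p = 1.19e-05). EEF1A2 (ENSG00000101210.14, chr20:63488013-63499239 on the minus strand), the paralog typical of muscle and neurons, went the other way. It was at 124.0, 120.4 and 123.2 CPM in wild-type and at 155.8, 151.1 and 146.8 CPM in knockout libraries (log2 fold change 0.30, SE 0.05, adjusted p = 0.000113). Per kilobase of the canonical transcript, which may not be the form these cells use, wild-type EEF1A1 was at 2242 ± 98 and EEF1A2 at 69.1 ± 1.1 CPM. EEF1A2 made up 2.99% ± 0.12 of the pair in wild-type and 4.60% ± 0.24 in knockout libraries, without overlap (exact two-sided permutation p = 0.1, the smallest possible here, adjusted p = 0.15). EEF1A1 has 49 processed copies in the annotation, which together held 0.735% of the counts of gene and copies, and adding them left its log2 fold change at -0.34.

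The exchange complex that recharges eEF1A with GTP was lower in 2 of its 3 subunits. Of all tested genes 20.7% were called lower, and of those at 100 CPM or more, where all 3 lie, 38.7%. EEF1G was at 2408, 2461 and 2301 CPM in wild-type and at 1944, 1980 and 2115 CPM in knockout libraries, with no overlap (log2 fold change -0.25, SE 0.05, adjusted p = 0.000438). EEF1B2 went from 295.8 ± 12.3 to 261.9 ± 9.0 CPM (log2 fold change -0.18, adjusted p = 0.00944), and its adjusted p was 0.0514 without knockout replicate 2, in a range from 0.005 to 0.0514. EEF1D was not called, at 285.4 ± 16.9 and 284.2 ± 11.9 CPM (adjusted p = 0.946). The 5 eEF1 transcripts, of which EEF1A1 is the most abundant, summed to 10966 ± 391 CPM in wild-type and to 8923 ± 239 CPM in knockout libraries, 81.4% of the wild-type sum. EEF2, the translocase, was not called. It was at 1150, 1202 and 1183 CPM in wild-type and at 1195, 1166 and 1195 CPM in knockout libraries, and the groups overlapped (log2 fold change 0.01, SE 0.05, adjusted p = 0.9). EEF2K, the kinase that inhibits eEF2, was at 35.8, 44.7 and 44.8 CPM in wild-type and at 35.7, 34.2 and 37.2 CPM in knockout libraries. Its groups overlap through wild-type replicate 1, and its call (log2 fold change -0.23, adjusted p = 0.0419) was lost with DESeq2 (0.0717), limma-voom (0.0508) and library size alone (0.106), and without any single library other than wild-type replicate 1 (0.0592 to 0.178), in a range from 0.00176 to 0.178.

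Of the release factors, ETF1, which reads the stop codon, was at 324.9, 289.7 and 299.2 CPM in wild-type and at 337.7, 352.3 and 358.0 CPM in knockout libraries. Every knockout library was higher (log2 fold change 0.20, SE 0.05, adjusted p = 0.00505). Its GTPase partner GSPT1 was at 304.0 ± 8.7 and 284.9 ± 5.7 CPM (log2 fold change -0.09, adjusted p = 0.136, not called).

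**Figure D3:**
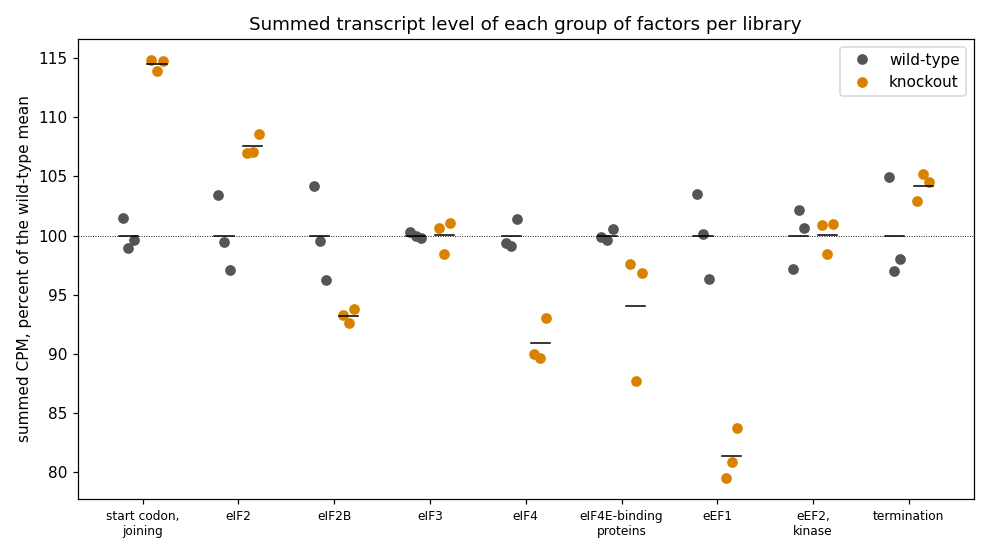
Summed CPM of each group of factors per library, as percent of the wild-type mean (y axis, which does not start at 0), in wild-type (grey) and knockout (orange) cells; bars are means. The start codon group lay at 114.5% and eEF1 at 81.4% of wild-type on average, with eIF3 and eEF2 near 100%.

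TOP-type factors were compared with the rest as a description, since the genes were chosen by name with earlier results known. Of 9 classic TOP factors (EEF1A1, EEF1B2, EEF1D, EEF1G, EEF2, EIF3E, EIF3F, EIF3H and EIF4B), 5 fell, none rose and 4 were not called, with a median log2 fold change of -0.18. All 9 were above 100 CPM, a level at which 38.7% of all genes were called lower and 23.9% higher. Of the other 36 factors, 8 rose, 11 fell and 17 were not called, with a median of -0.01, which became 0.04 with library size alone as the scaling. The median over all tested genes was -0.004, and over those at 100 CPM or more it was -0.062. The median of 79 cytosolic ribosomal proteins, themselves TOP mRNAs, was -0.28, with 70 lower and 1 higher. The classic list was not uniform: EEF2, EEF1D and EIF3F had log2 fold changes of 0.01, -0.01 and -0.01. A wider list of 17 that adds EEF1A2, EIF2S3, EIF3A, EIF3G, EIF3K, EIF3L, EIF3M and EIF4A2 had a median of -0.08, with 8 lower and 2 higher.

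The tract at the annotated start gave a second grouping, chosen after the values were seen. Of 36 factors with a start in the promoter table that was used, 10 had the tract (27.8%), searched on the coding strand only. The share was 4.08% of 27305 genes in the table and 5.39% of 11574 tested genes. At 100 CPM or more, 186 tested genes had the tract and 1667 did not. The 10 factors are EEF1A1, EEF1B2, EEF2, EIF4B, EIF3F, EIF2S3, EIF3K, EIF3M, EIF4A2 and EIF3D. Of these 10, 5 fell, none rose and 5 were not called, with a median log2 fold change of -0.12. Of the 26 without it, 8 fell and 5 rose, with a median of -0.02. EIF3C is among these 26, though the start read for it lies 22906 bases from the GENCODE canonical start. The difference between the medians rests on which start is read. With the first start listed for each gene in place of the one nearest the GENCODE canonical start, EEF1B2 lost its tract, the median of the 9 remaining factors was -0.06, and that of the other 27 was -0.03. The longest tracts are those of EIF3D and EIF3F, with 10 bases, and EEF1B2, with 16, and their log2 fold changes were 0.08, -0.01 and -0.18. EEF1G, which starts with A, fell, as did EIF4A1, whose run of pyrimidines is 3 bases long. Among tested genes other than these factors and the ribosomal proteins, 35.9% of 569 with the tract were called lower and 12.8% higher, and of 10923 without it 21.8% were called lower and 21.8% higher. At 100 CPM or more, where all 10 factors with the tract lie, the shares called lower were 61.2% of 129 and 35.3% of 1633. The medians of these genes at that level were -0.19 with the tract and -0.04 without it. With the first listed start, 34.0% of 564 genes with the tract were called lower and 14.4% higher. Their median log2 fold change was -0.08. With the start nearest the canonical one, the medians of these other genes at all levels were -0.11 with the tract and -0.01 without it. Both moved with the scaling, to -0.06 and 0.04 with library size alone and to -0.15 and -0.05 with offsets for length and GC content. Of the 79 ribosomal protein genes, 63 had a start in the promoter table. Of these, 41 of 47 with the tract and 14 of 16 without it were called lower. An annotated start need not be the start these cells use.

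**Figure D4:**
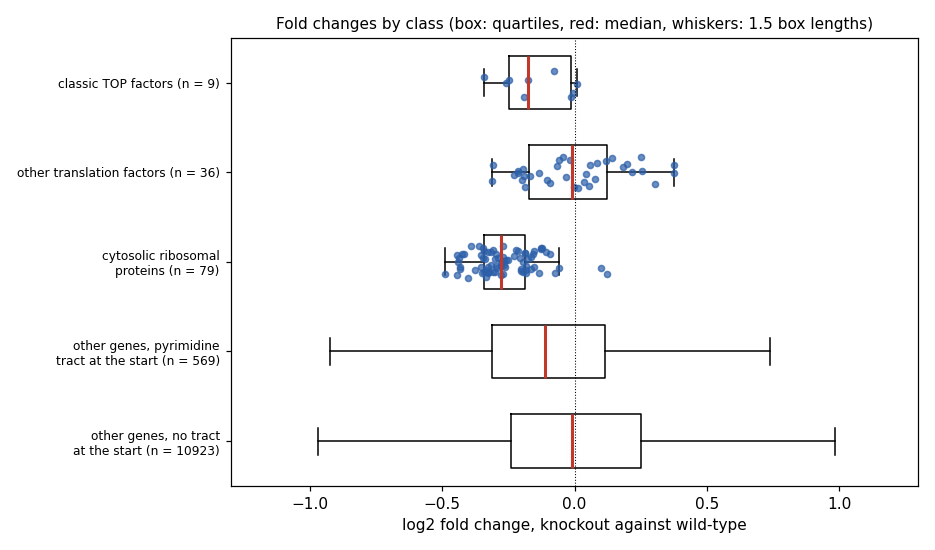
Log2 fold change (x axis) of the classic TOP factors, the other translation factors of the set, cytosolic ribosomal proteins, and all other tested genes with or without a pyrimidine tract at the annotated start; boxes are quartiles with the median in red, and points are genes where a class has under 100. The classic TOP factors have their median at -0.18, between the ribosomal proteins at -0.28 and the other factors at -0.01.

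Further factors of the pathway were taken from a list of 35 genes outside the set, of which 11 rose, 4 fell and 20 were not called (median log2 fold change 0.09). That is 31.4% higher and 11.4% lower, beside 20.5% and 20.7% of all tested genes. LSG1 and EFL1, GTPases that mature the large subunit, rose by 0.42 and 0.26 on the log2 scale (adjusted p = 0.000125 and 0.00608). ABCF1, which works with eIF2, and DDX3X, a helicase of initiation, rose by 0.23 and 0.22 (adjusted p = 0.00175 and 0.00217). EIF5A2 and GSPT2, the less abundant paralogs of EIF5A and GSPT1, rose by 0.41 and 0.33 (adjusted p = 0.0116 and 0.013), from 9.31 ± 0.41 to 12.4 ± 0.7 CPM and from 24.9 ± 3.7 to 31.2 ± 1.9 CPM.

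Of 28 regulators of translation factors, 7 rose, 5 fell and 16 were not called (median log2 fold change 0.09). These shares, 25% and 17.9%, are near the 20.5% and 20.7% of all tested genes. PPP1R15A and PPP1R15B, which guide a phosphatase to the alpha subunit of eIF2, rose from 519.8 ± 65.0 to 1231 ± 88 CPM and from 116.8 ± 9.8 to 204.7 ± 3.6 CPM. Their log2 fold changes of 1.24 and 0.81 were above the 0.38 of EIF5, the highest of the 45 factors. MKNK2, a kinase of eIF4E, rose by 0.59 on the log2 scale (adjusted p = 6.51e-07). The enzymes that make the hypusine residue of eIF5A moved apart. DHPS, which acts first, fell from 50.1 ± 3.8 to 37.0 ± 2.3 CPM (adjusted p = 0.00013), and DOHH, which completes the residue, rose from 28.8 ± 1.9 to 44.6 ± 2.9 CPM (adjusted p = 3.35e-06). DPH2, an enzyme of the diphthamide residue of eEF2, rose by 0.26 (adjusted p = 0.00306). LARP1, the TOP mRNA-binding protein, was at 266.0 ± 50.7 and 304.6 ± 13.9 CPM (log2 fold change 0.20, adjusted p = 0.382, not called).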

How the data were processed

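The data are 6 bulk RNA-seq libraries. The authors made a single table of expected counts from paired-end reads, with GRCh38 as the build per the submitters' processing notes; the deposited values are not all whole and are not normalized. Which program aligned and counted the reads, and whether strand was used, is not given in the sources used here, so antisense or overlapping genes may share reads. Identifiers without version were matched to GENCODE release 44 (62541 of 63086). Groups come from the sample titles. The submitters call the libraries biological replicates but do not say how cultures were separated, so p-values measure the spread between these libraries, which may be technical.

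Counts were rounded, filtered with filterByExpr (minimum count 10) and scaled by TMM, and knockout was compared with wild-type by a robust quasi-likelihood fit in edgeR 4.0.16 (R 4.3.3) with group as the only term. P-values are two-sided and adjusted by Benjamini-Hochberg over 16046 genes. A test against a 1.5-fold change (glmTreat) used the same fit. A count of 3 equals 0.159 to 0.176 CPM, which covers counting error only. The fit was tested on simulated counts of 16046 genes for this comparison. With gene-wise dispersions, the version run first, it recovered 50% of genes changed by 1.25-fold and 68% of those changed by 1.5-fold, and 12.7% of its calls were false, above the 5% that the threshold aims at. With trended dispersions, used in a second version after that result, it recovered 46% and 60%, and 6.21% were false. The false calls numbered 21 and 9, so each simulation held far fewer calls than the 6608 in the data. The shares recovered and false depend on how many genes change, so they may not apply to this comparison. Alternatives were DESeq2 1.42.0, DESeq2 size factors, library size alone, no filter, limma-voom (limma 3.58.1), a replicate block, offsets for transcript length and GC content (mgcv 1.9.3), leaving out each library, adding pseudogene counts, and a wider TOP list. CPM per kilobase uses the length of GENCODE's canonical transcript. For genes with several RefSeq starts, the start nearest to that of the canonical transcript was used, a choice made after the results with the first listed start had also been seen.

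The factors, lists and tests were chosen with earlier results of these data known. The classic and wider TOP lists rest on general knowledge and not on these files. Values in each library are given for the 6 highest and 6 lowest called factors whose groups do not overlap, for the factor with the smallest p in each other complex, and for EIF2S1, EIF4E, EIF4EBP1, EIF5A, EEF1A1 and EEF2. Of further factors and regulators, the 6 with the smallest p each are named, and LARP1 was added after its value was seen. Of 29 regulators listed, 28 matched by symbol. EIF2S2, EIF3A, EIF3G, EIF3L and EEF1A2, and the factors on chromosome 8, are not among the start sequences used. A further list of cell type markers is not reported here.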

Additional observations from a re-analysis of the deposited data

How the results depend on the processing

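Of the 8 higher and 16 lower calls, 7 and 9 held in all 14 alternative settings run for each gene; the exceptions were EIF5B among the higher and EEF1B2, EEF2K, EIF2B1, EIF2B4, EIF4E, EIF4EBP1 and EIF4H among the lower, and no called factor changed direction. Counts of factors called higher and lower ran from 7 to 8 and from 11 to 14 when a library was left out, with 5369 to 6637 genes called in all. The median log2 fold change of the classic TOP factors then ran from -0.205 to -0.150, that of the other factors from -0.0271 to 0.0129, that of factors with a tract from -0.135 to -0.100, and those of other genes with and without a tract from -0.125 to -0.107 and from -0.0113 to -0.00683. With library size alone these 5 medians were -0.130, 0.0356, -0.0724, -0.0648 and 0.0363. With offsets for length and GC content they were -0.147, -0.0487, -0.137, -0.152 and -0.0507, and 7 factors were higher and 20 lower. Other genes with and without a tract had medians of -0.123 and -0.0221 with no filter and of -0.00539 without a tract by DESeq2 or its size factors, and limma-voom gave -0.102 with one. With the first listed start the medians were -0.0603 for factors with a tract and -0.0845 for other genes with one. The wider TOP list had a median of -0.0763. The start search and its settings were chosen after seeing the data, and the cause of these shifts was not tested. The replicate numbers did not pair the libraries (correlations of same-numbered deviations of -0.031, 0.0075 and 0.028), and with a replicate block 8 factors were higher and 13 lower, with 6241 genes called and EIF4E, EIF4H and EEF2K no longer among them. Of the factors not called, EIF1AX, EIF2S1, EIF3H, EIF3J, EIF3M, EIF4EBP2 and GSPT1 passed the threshold in some setting.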

Other observations

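Of 8 further TOP mRNAs that encode none of the factors above, 6 fell in knockout cells and 1 rose, beside 38.7% lower and 23.9% higher among all genes at 100 CPM or more, where all 8 lie. HNRNPA1, an RNA-binding protein, fell from 1900.2 ± 57 to 1259 ± 34 CPM (log2 fold change -0.59, adjusted p = 6.29e-09, edgeR), and VIM, the intermediate filament vimentin, from 3849 ± 98 to 2757 ± 86 CPM (log2 fold change -0.48, adjusted p = 1.03e-07). RACK1, a protein bound to the small subunit, fell by 0.24 on the log2 scale, and NAP1L1, a histone chaperone, by 0.16 (adjusted p = 0.000268 and 0.0126). PABPC1, the poly(A)-binding protein that bridges to eIF4G, rose by 0.15 (adjusted p = 0.0239), and TPT1 was at 2080.5 ± 161 and 2026 ± 50 CPM (adjusted p = 0.607).

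ATF4, the factor whose translation rises when eIF2 is phosphorylated, was at 463.7, 434.9 and 437.2 CPM in wild-type and at 537.2, 465.9 and 571.4 CPM in knockout libraries (log2 fold change 0.24, SE 0.06, adjusted p = 0.00585). Of the kinases of the alpha subunit of eIF2, EIF2AK3 rose by 0.36 on the log2 scale and EIF2AK1 fell by 0.20 (adjusted p = 0.013 and 0.00668), while EIF2AK2 and EIF2AK4 were not called (adjusted p = 0.115 and 0.386). Transcript levels do not show whether eIF2 was phosphorylated.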
